A study of Mus musculus with 14 samples.

Results

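The regions described here are places in the mouse genome where BCOR was found in the embryonic and newborn retina but not in the adult retina, and where Otx2 was also found at birth. They were chosen by their peaks: the autosomal peaks of 10 CUT&RUN libraries were merged wherever they overlapped by at least 1 bp, and a merged region was kept if it held a peak of BCOR at E14, of BCOR in both P0 libraries and of Otx2 in both P0 libraries, and no peak of BCOR in either adult library. Of 39193 merged regions, 1485 met this rule, and they are called developmental regions below. CUT&RUN cuts and recovers the DNA next to an antibody-bound protein, so a peak marks a place where the protein, or a complex that holds it, lay on chromatin. All 10 libraries came from retina of mice labelled wild type, of the CD1 strain. BCOR and Otx2 were each profiled in 1 library at embryonic day 14 (E14), 2 at birth (P0) and 2 in the adult, whose age the labels do not give. The series also holds 4 RNA libraries, from retinas electroporated at P0 with a Bcor short hairpin or a control plasmid and collected at postnatal day 21, which were not used here. The electroporation protocol is attached to every sample in the labels, but its ages match the RNA libraries alone. The labels do not say how many animals stand behind a library, so 2 libraries of a group may be technical repeats. A whole retina mixes cell types, and fewer cells with a factor and less of the factor per cell cannot be told apart.

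BCOR is a corepressor that binds no DNA of its own and is brought to chromatin by other proteins. It is a core subunit of a variant Polycomb repressive complex 1 that ubiquitinates histone H2A. Otx2 is a homeodomain transcription factor that directs retinal progenitors toward the photoreceptor and bipolar fates and is still made in those cells in the adult. Its relative Crx takes over much of the photoreceptor program and reads a very similar DNA motif, and the submitters' design text names the target as Otx2/Crx.

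The lists differed in length and in stringency, and these differences run with stage. For BCOR they held, on the autosomes, 10736 peaks at E14, 5292 and 8784 at birth, and 1339 and 2445 for the adult pair. For Otx2 the numbers were 8497, then 21759 and 24884, then 7183 and 14590. The largest q-value was 0.0999 and 0.0996 at E14, between 0.0473 and 0.0496 at P0, and 0.0466 and 0.0489 for adult Otx2. It was 0.248 in both adult BCOR lists, so these were the shortest lists although they admitted peaks of the highest q-values. The peak names also differed by stage, so stage and the way the lists were made cannot be told apart. The number of reads per library is unknown. Intervals below are 95% intervals over regions, cover counting error only and treat neighbouring regions as independent, and they carry no p-value. The developmental regions took 14.1% of the BCOR E14 list, 28.9% and 17.3% of the BCOR P0 lists, and 6.99% and 6.11% of the Otx2 P0 lists.

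Other groups of merged regions served for comparison. Developmental BCOR regions without Otx2 met the same BCOR rule but held no Otx2 P0 peak (649 regions). Otx2 P0 regions without BCOR held both Otx2 P0 peaks and no BCOR peak at any age (11227 regions). Lasting regions held all 5 BCOR peaks and both Otx2 P0 peaks (703 regions).

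The developmental regions ranked from the middle to the upper part of the BCOR and Otx2 lists, below the lasting regions. The rule chose these regions by the presence of the peaks, so their strength in the 5 required lists is a description. The fold is the authors' enrichment of a peak over its local background, and its percentile is its rank within its own list. The median BCOR fold was 6.41 at E14 (range 2.75 to 15.4) and 5.11 and 7.13 in the P0 libraries, at percentiles 67.9, 46.7 and 65.1. The median Otx2 fold at P0 was 8.14 and 8.62 (ranges 2.55 to 176 and 2.42 to 154), at percentiles 64.5 and 67.0. Lasting regions stood higher in every one of these lists, at median percentiles 88.5, 74.0 and 86.5 for BCOR and 79.4 and 78.3 for Otx2. The merged developmental regions were 786 bp wide at the median (range 258 to 3801 bp), against 545 bp for Otx2 P0 regions without BCOR and 938 bp for lasting regions, and a wider region has more room to hold a further peak.

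**Figure D1:**
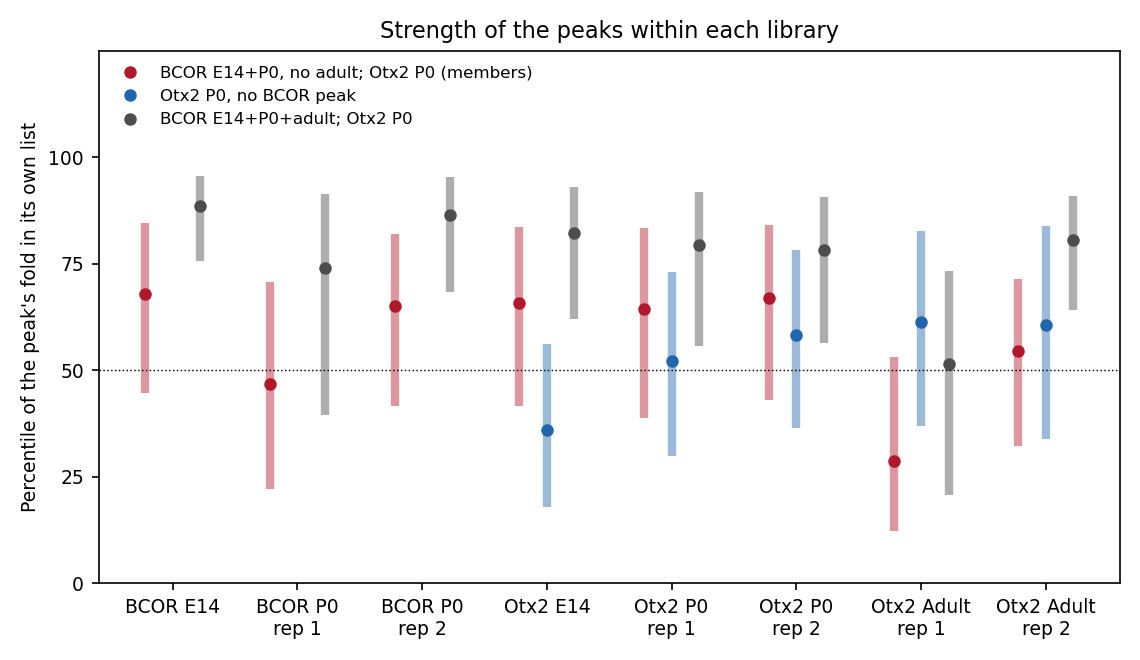
Rank of peak fold within its own list (y axis, percentile) for the Otx2 libraries and the E14 and P0 BCOR libraries (x axis). Groups are the developmental regions (members), Otx2 P0 regions without BCOR and lasting regions. Points are medians over the regions with a peak and bars span the middle 50% of them. The developmental regions lie above Otx2 P0 regions without BCOR at E14 and P0 and below them in both adult Otx2 libraries.

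Ranked by mean percentile over the 5 required lists, the strongest developmental region named was chr2:179853559-179854448 (mm9 coordinates, as for all positions here), at percentile 96.6. Its BCOR fold was 9.80 at E14 and 15.1 and 17.1 at P0, and its Otx2 fold was 13.9 at E14, 32.9 and 32.4 at P0, with 13.4 and 37.5 for the adult pair. The summits of its 4 P0 peaks lay within 22 bp of each other, and those of all 8 peaks within 25 bp. Otx2 was thus enriched at 1 place in all 5 of its libraries, whereas BCOR had a peak there only in the E14 and P0 lists.

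The next 5 regions also had BCOR and Otx2 peaks at E14 and P0, and they differed in their adult Otx2 peaks. The spread of their 4 P0 summits ran from 11 bp at chr7:20093510-20094335 to 189 bp at chr7:82600163-82601008. At chr7:19716297-19717253 the BCOR folds were 14.1 at E14 and 11.3 and 14 at P0, and the Otx2 folds were 12.3 at E14, 22.7 and 20.9 at P0, and 11.7 and 26.3 for the adult pair. At chr7:20093510-20094335 they were 7.54, 13.2 and 15.1 for BCOR and 7.80, 29.8, 27.1, 5.13 and 15.1 for Otx2 in the same order. At chr17:57129358-57129971 BCOR stood at 11.5, 11.9 and 8.99 and Otx2 at 6.06, 25.2, 27.2, 5.13 and 20.2. Each of these 3 had Otx2 peaks in all 5 Otx2 libraries. The other 2 lacked a peak in Otx2 adult replicate 1. At chr7:82600163-82601008 the BCOR folds were 9.33, 11.8 and 21.1, and the Otx2 folds were 16.2 at E14, 19 and 22.3 at P0 and 26.2 in adult replicate 2. At chr17:84495734-84496419 the BCOR folds were 7.23, 14.4 and 17.6, and the Otx2 folds were 5.83 at E14, 24.3 and 36.4 at P0 and 7.67 in adult replicate 2.

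At the lower end, chr15:85641746-85642264 (percentile 4.76) had BCOR folds of 3.20 at E14 and 3.28 and 3.90 at P0 and Otx2 folds of 3.49 and 3.66 at P0. It had no Otx2 peak at E14 or in adult replicate 1, and a fold of 6.90 in adult replicate 2. At chr3:143867917-143868921 (percentile 7.62) the BCOR folds were 4.27, 3.15 and 3.94 and the Otx2 folds 4.20 at E14 and 2.97 and 3.61 at P0. At chr13:21901736-21902555 (percentile 11.1) they were 5.51, 2.95 and 3.09 for BCOR and 4.87, 2.55 and 2.42 for Otx2. Neither of the last 2 had an adult Otx2 peak. The P0 summits of the chr3 region spread over 775 bp, and over 248 bp without BCOR P0 replicate 1, so its peaks share a merged region without all marking 1 place.

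The threshold of the rule is the presence of a peak in each deposited list. The lowest −log10 q-value among the developmental regions was 1.00 in BCOR E14, 1.30 and 1.52 in the BCOR P0 lists and 1.35 and 1.47 in the Otx2 P0 lists. The BCOR P0 replicate 1 list decided membership most often. In it 77 developmental regions (5.19%) had a −log10 q under 2, against 8 to 13 in the other 4 required lists. A further 1162 merged regions missed the rule by the lack of a peak in that list alone, against 96 for BCOR P0 replicate 2, 236 for BCOR E14, and 201 and 91 for Otx2 P0 replicates 1 and 2. A peak in adult BCOR replicate 1 alone kept out 134 regions, and 1 in adult replicate 2 alone kept out 549. The regions kept out by an adult BCOR peak were stronger than the developmental regions, with a median percentile over the required lists of 68.2 and 67.8 against 58.6. The strongest of them, chr15:81560095-81560821, had a fold of 9.07 in BCOR adult replicate 2. Its BCOR folds were 13.0 at E14 and 15.2 and 18.5 at P0, and its Otx2 folds were 9.99 at E14, 26.9 and 33.2 at P0, with 18.3 and 57.9 for the adult pair. At chr5:36826879-36827468 the BCOR fold in adult replicate 2 was 9.91, and at chr2:30247339-30248250 it was 8.12. None of the 3 had a peak in BCOR adult replicate 1, so they were neither developmental nor lasting regions.

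Most developmental regions already held Otx2 at E14, in a library that the rule did not use. A peak was present in 1223 of 1485 regions, or 82.4% (80.3 to 84.2, Wilson interval), against 21.4% of all merged regions. The share was 22.2% (19.2 to 25.5) in developmental BCOR regions without Otx2 at P0, a difference of 60.2 points (56.3 to 63.7, Newcombe interval). It was 14.7% (14 to 15.3) in Otx2 P0 regions without BCOR, a difference of 67.7 points (65.6 to 69.7). Regions with Otx2 at P0 and BCOR at E14 and P0 therefore carried E14 Otx2 more often than regions with only 1 of those features. Lasting regions held it more often still, in 95.7% (94.0 to 97.0), and the developmental regions stood below them by -13.4 points (-15.8 to -10.8).

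**Figure D2:**
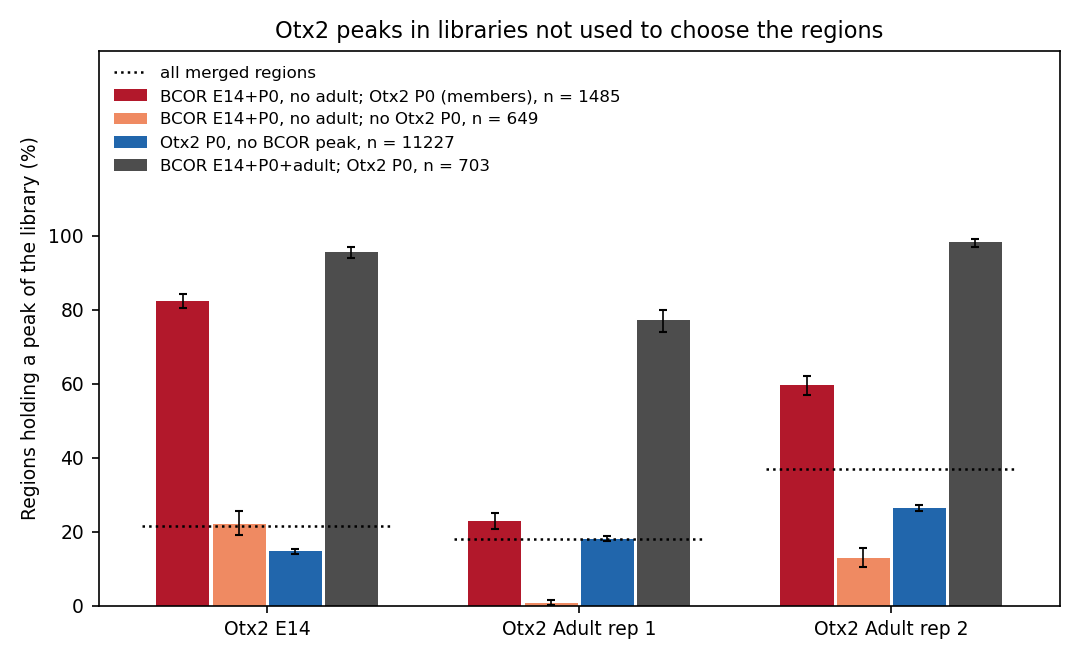
Share of regions (y axis, percent) with an Otx2 peak at E14, in adult replicate 1 and in adult replicate 2 (x axis) for the developmental regions (members) and 3 other groups; error bars are Wilson intervals and dotted lines the shares of all merged regions. The developmental regions reach 82.4% at E14, and 22.9% and 59.6% in the 2 adult libraries.

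The age at which BCOR was present was split further, in groups chosen after seeing the data. Among regions with both Otx2 P0 peaks, those with BCOR at E14 alone held E14 Otx2 in 55.1% (52.3 to 57.9; 1223 regions). Those with BCOR in both P0 lists alone held it in 37.7% (31.8 to 44.0; 236 regions). The developmental regions, with BCOR at both ages, exceeded the first by 27.2 points (23.8 to 30.6) and the second by 44.6 points (38.0 to 50.9). Each kind of BCOR peak therefore went with a higher E14 Otx2 share than the 14.7% of BCOR-free regions. The E14 libraries of BCOR and Otx2 share a stage and a form of peak name, and their part in this result was not tested.

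The E14 difference was present at every strength of Otx2 at P0. All merged regions with both Otx2 P0 peaks were cut into 4 bands of equal number by their mean P0 percentile, and in the weakest band 72.2% of developmental regions had E14 Otx2 against 4.64% of BCOR-free regions. In the next 2 bands the shares were 79.6% against 7.18% and 84.9% against 13.6%. In the strongest band they were 88.8% against 41.1%, so the gap between the groups was narrowest among the strongest Otx2 regions. Within the developmental regions the E14 Otx2 share rose with BCOR strength at E14. From the weakest to the strongest of 4 equal bands of BCOR E14 fold, 69.9%, 77.4%, 87.6% and 94.6% of developmental regions held E14 Otx2. Over 4 bands of all BCOR E14 regions, the developmental regions exceeded those without Otx2 at P0 by 54.4, 56.8, 49.5 and 62.4 points, with overlapping intervals and no trend. Across the 1223 regions with both, the Spearman correlation of BCOR and Otx2 fold at E14 was 0.462. At P0 it was between 0.00440 and 0.0848 for the 4 BCOR and Otx2 pairs over 1485 regions, while the pair of Otx2 P0 libraries had 0.880 and the pair of BCOR P0 libraries 0.609. These correlations describe regions that share libraries and were all chosen for having peaks.

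**Figure D3:**
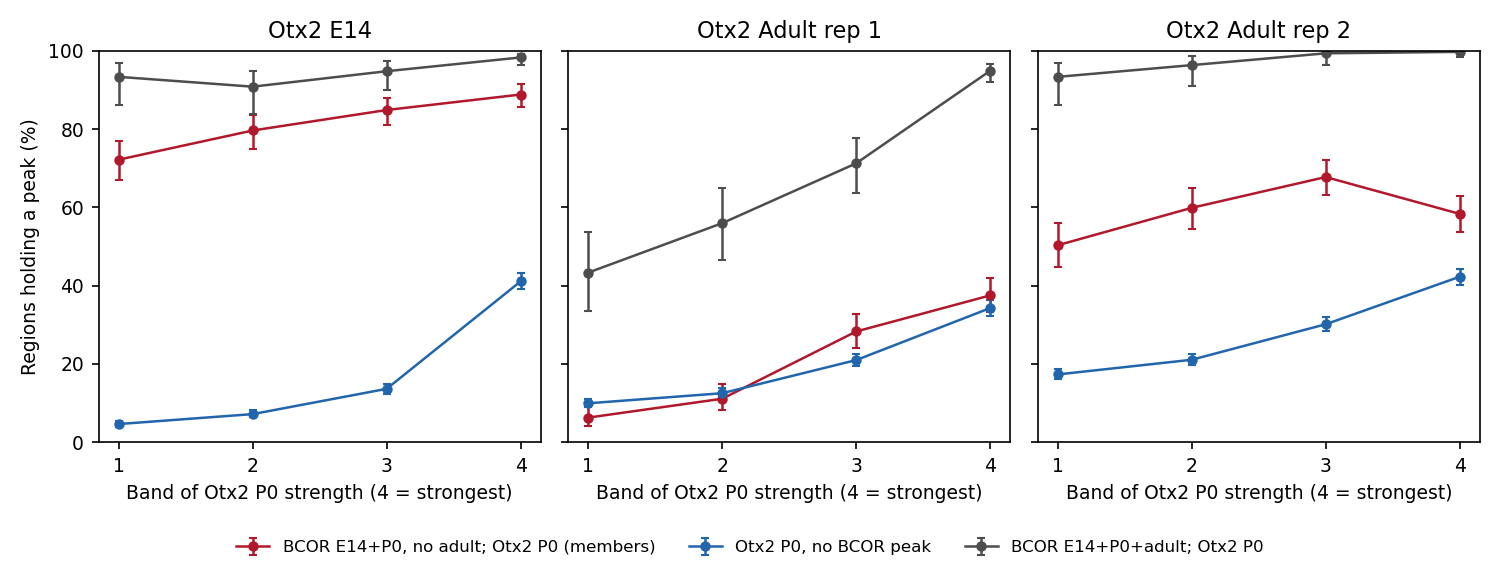
Share of regions (y axis, percent) with an Otx2 peak at E14 and in each adult library (panels), by band of Otx2 P0 strength (x axis, weakest to strongest), for the developmental, BCOR-free and lasting regions; error bars are Wilson intervals. The developmental regions lie far above the BCOR-free regions at E14 and in adult replicate 2, but the 2 lines cross in adult replicate 1.

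In the adult the developmental regions held an Otx2 peak less often than the lasting regions, and by how much they exceeded BCOR-free regions depended on the library. In Otx2 adult replicate 1, 340 of 1485 developmental regions had a peak, or 22.9% (20.8 to 25.1), against 17.9% of all merged regions. In replicate 2 there were 885, or 59.6% (57.1 to 62.1), against 37.0% of all merged regions. Peaks in both were found in 332 regions, or 22.4% (20.3 to 24.5; all merged regions 16.8%), and in neither in 592, or 39.9% (37.4 to 42.4; all merged regions 61.9%). The share with both was 77.0% in lasting regions, higher by far than in the developmental regions, which differed from them by -54.6 points (-58.2 to -50.7). The rule itself sets these groups apart by their adult BCOR peaks. The adult libraries of BCOR and Otx2 share a stage and a form of peak name, and their part in this gap was not tested. Regions kept out by a peak in BCOR adult replicate 1 or 2 alone held both adult Otx2 peaks in 59.7% and 55.7%. The share with both was 0.616% (4 of 649) in developmental BCOR regions without Otx2 at P0, a difference of 21.7 points (19.5 to 24.0). Against the 17.2% of Otx2 P0 regions without BCOR, the developmental regions were higher by 5.18 points (3.02 to 7.48). That last difference was 4.79 points (2.60 to 7.10) in adult replicate 1 alone and 33.2 points (30.6 to 35.8) in replicate 2 alone. It was 7.98 and 13.1 points when the rule left out BCOR adult replicate 1 or 2, and 3.34 points when it left out BCOR P0 replicate 1. The difference from developmental BCOR regions without Otx2 was 46.8 points in Otx2 adult replicate 2 alone.

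In points, the gap between the 2 adult libraries was larger in the developmental regions than in BCOR-free or lasting regions. Of the 561 developmental regions with Otx2 in 1 adult library, 553 had it in replicate 2 and 8 in replicate 1. Peaks in replicate 2 alone thus made up 37.2% of the developmental regions, but 9.19% of Otx2 P0 regions without BCOR and 21.3% of lasting regions. Lasting regions had less room for such peaks, since 77.1% of them held a replicate 1 peak and 98.3% a replicate 2 peak. The replicate 2 list is longer, with 14590 against 7183 peaks. It was also shortened to the length of replicate 1 by q-value, an alternative chosen after seeing the data. It then still covered 36.5% (34.0 to 38.9) of the developmental regions, against 22.9% in replicate 1. Lasting regions likewise had more in the shortened list, 87.1% (84.4 to 89.3) against 77.1%, whereas BCOR-free regions had 15.3% against 18.1%. A higher share in replicate 2 at equal length was therefore not particular to the developmental regions.

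Matched for Otx2 strength at P0, the excess over BCOR-free regions in the share with both adult peaks was found in the upper 2 bands alone. In the weakest band peaks in both adult libraries were found in 5.96% of developmental and 9.41% of BCOR-free regions, a difference of -3.45 points (-5.86 to -0.0496). In the next band the difference was -1.32 points (-4.44 to 2.65). In the upper bands it was 7.29 points (2.89 to 12.1) and 4.80 points (0.0488 to 9.72). In replicate 1 alone the 4 differences were -3.66, -1.41, 7.30 and 3.24 points, and the intervals of the second and of the last included 0. In replicate 2 alone they were 33.0, 38.8, 37.6 and 16.1 points. The direction of the comparison with BCOR-free regions in the weaker bands therefore differed between the adult libraries. Against the lasting regions, the developmental regions were lower in each of the 4 bands, with 5.96%, 10.5%, 27.3% and 37.3% against 43.3%, 55.0%, 71.2% and 94.9%.

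Where Otx2 did have an adult peak, the peak ranked low in the replicate 1 list and near the middle of the replicate 2 list. The median fold in the developmental regions was 5.83 in adult replicate 1 and 9.80 in replicate 2, at percentiles 28.7 (26.7 to 34.3) and 54.6 (53.4 to 56.9). Otx2 P0 regions without BCOR stood at percentiles 61.3 and 60.7 there, and lasting regions at 51.4 and 80.5. At P0, where both groups had to hold the peaks, the order against BCOR-free regions was the reverse, with the developmental regions higher in both libraries. The adult medians, by contrast, cover 22.9% and 59.6% of the developmental regions but 18.1% and 26.4% of BCOR-free regions. By −log10 q-value the adult gap was found in replicate 1, with medians of 8.95 against 12.6, but in replicate 2 both groups had a median of 18.1.

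A few developmental regions went against this and ranked near the top of the adult Otx2 lists. At chr17:68352857-68354122 the Otx2 fold was 10.6 at E14, 58.6 and 61.0 at P0, and the adult pair gave 29.2 and 90.1, at percentiles 96.3 and 99.0 of their lists. BCOR there had folds of 7.96 at E14 and 4.77 and 8.66 at P0. At chr4:45984731-45985648 Otx2 had no E14 peak, folds of 16.6 and 17.0 at P0, with 21.0 and 55.5 for the adult pair. The third region, chr13:44325910-44328193, was 2284 bp wide and had Otx2 folds of 8.14 at E14, 58.1 and 71.3 at P0, with 24.7 and 40.9 for the adult pair. The summits of both Otx2 P0 peaks and of BCOR P0 replicate 2 lay within 35 bp there, and with BCOR P0 replicate 1 the spread was 897 bp.

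Put together by age, 476 regions (32.1%, 29.7 to 34.5) had Otx2 at E14 and P0 and then in 1 adult library. Another 454 (30.6%, 28.3 to 33.0) had it at E14 and P0 and in no adult library, and these intervals overlap. Otx2 at every age in every library was found in 293 regions (19.7%). A single adult peak mostly marks a difference between the adult lists, since 553 of all 561 such regions had it in replicate 2. With that list shortened to the length of replicate 1, the share with no adult peak rose from 39.9% to 61.5%, and the order of these courses depends on list length. Without an E14 peak there were 138 regions (9.29%) with Otx2 at P0 alone, 85 (5.72%) with 1 adult peak and 39 (2.63%) with both. Regions with E14 Otx2 had an adult peak of Otx2 more often, in 62.9% (769 of 1223) against 47.3% (124 of 262), a difference of 15.5 points (8.92 to 22.1). Otx2 strength at P0 did not fall evenly over these courses. Among regions with an E14 peak the median P0 percentile was 80.7 for those with both adult peaks, 55.8 for those with 1 and 67.1 for those with none.

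**Figure D4:**
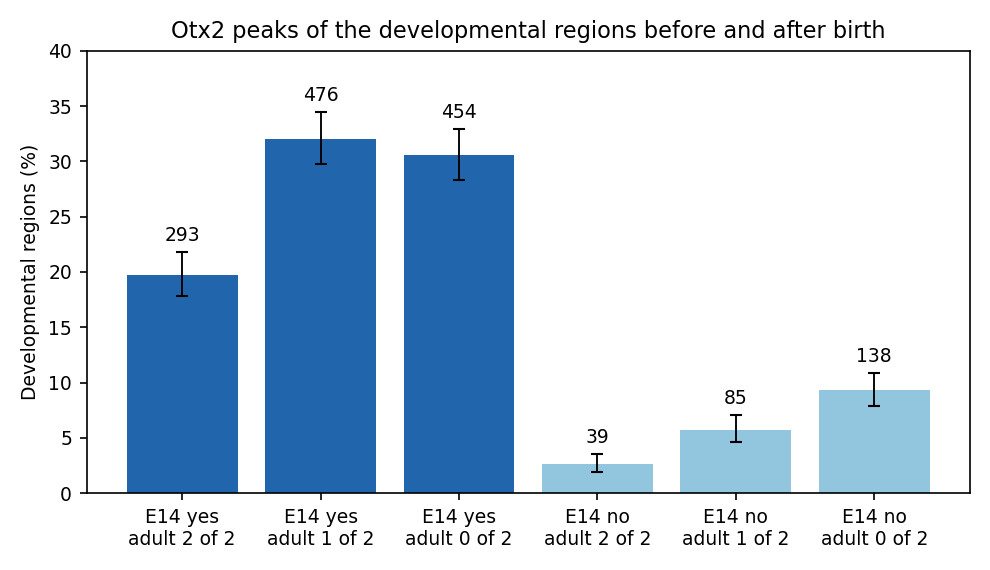
Share of the developmental regions (y axis, percent, with Wilson intervals; the number of regions stands above each bar) by whether Otx2 had a peak at E14 and by the number of adult Otx2 libraries with a peak (x axis). The courses run from 476 regions with E14 and 1 adult peak to 39 regions without E14 and with both adult peaks. Of all 561 regions with 1 adult peak, 553 had it in replicate 2, the longer list.

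Named examples show each course. Without adult Otx2, the strongest regions were chr7:86417639-86418271, with BCOR folds of 11.2 at E14 and 8.38 and 13.6 at P0 and Otx2 folds of 11.1 at E14 and 19.3 and 16.4 at P0, and chr19:10257101-10258325. In the second the BCOR folds at P0, 22.2 and 35.1, stood beside Otx2 folds of 11.3 and 13.7. In chr2:4450037-4450975, the third, they were 7.24 and 10.4 for BCOR and 24.5 and 20.3 for Otx2. Folds of separate libraries are not on 1 scale, so these are values side by side and not a comparison of the factors.

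Regions in which Otx2 appeared after E14 and lasted were led by chr7:28146032-28146766, with Otx2 folds of 12.9 and 14.8 at P0, with 7.15 and 23.4 for the adult pair. BCOR was present there before Otx2 was called, at a fold of 10.7 at E14, and had 7.15 and 9.73 at P0. At chr11:75299786-75300781 the Otx2 folds were 24.7, 25.9, 12.4 and 22.5, and at chr5:145306406-145307081 they were 22.3, 22.1, 10.1 and 20.2, in the same order. Otx2 was called at P0 alone in chr7:51926043-51926758, where its folds were 25.5 and 26.8 and those of BCOR 4.41 at E14 and 15.6 and 24.7 at P0. It was likewise called at P0 alone in chr11:100275576-100276305 (Otx2 10.4 and 13.3) and chr4:95694892-95695857 (Otx2 8.98 and 12.8). A missing peak in any of these says that the region did not pass the caller's threshold, not that the factor was absent.

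BCOR and Otx2 summits lay close together within the developmental regions. A summit is the base of highest signal in a peak. For the 4 pairs of 1 BCOR and 1 Otx2 P0 library the median distance was 61, 56, 50 and 45 bp, and 67.4% to 72.7% of regions had summits within 100 bp. The median distance was 44 bp between the BCOR P0 libraries and 29 bp between the Otx2 P0 libraries, which shows how finely a summit is placed. With BCOR P0 replicate 1 the distances to Otx2, 61 bp (57 to 67) and 56 bp (50 to 62), were above the 44 bp (41 to 48) between repeat BCOR libraries, while with replicate 2, at 50 bp (47 to 53) and 45 bp (41 to 50), the intervals overlapped it. The rule required these peaks to share a merged region, which itself keeps summits close, so the distances are a description. At E14 the BCOR and Otx2 summits were 56 bp apart at the median (1223 regions). In regions with an adult Otx2 peak, the median distance from its P0 to its adult summit was 39 bp for each adult library (340 and 885 regions). Between the adult Otx2 libraries it was 28 bp (332 regions). All these peaks were compared within a merged region, so these distances are a description too. In 1476 of 1485 regions (99.4%) at least 1 pair of a BCOR and an Otx2 P0 peak, from any replicate, overlapped by at least 50% of the shorter peak.

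**Figure D5:**
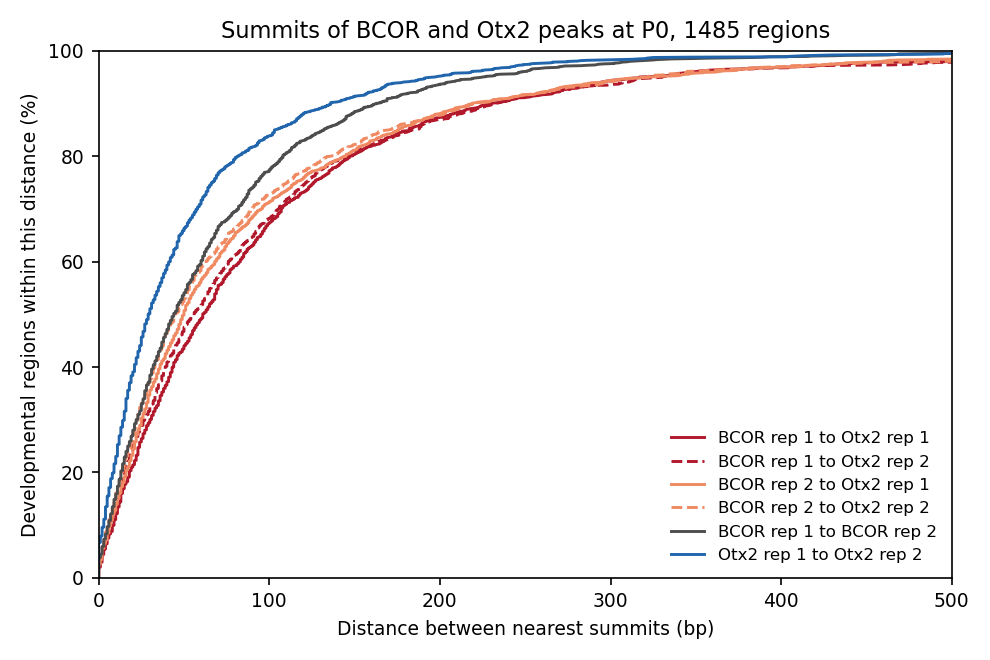
Share of the developmental regions (y axis, percent) whose nearest summits lie within a given distance (x axis, bp), with 1 line for each pair of P0 libraries. The pairs of unlike factors have medians of 45 to 61 bp, against 44 bp for the BCOR pair and 29 bp for the Otx2 pair.

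The developmental regions were spread over every autosome. Their number ran from 45 on chromosome 16 to 111 on chromosome 4, and they made up 3.05% to 4.72% of the merged regions of a chromosome. The E14 Otx2 share ran from 76.6% (chromosome 17) to 93.8% (chromosome 3), so no chromosome came near the 21.4% of all merged regions. The share with both adult peaks ran from 13.8% (chromosome 3) to 31.2% (chromosome 17).

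Most developmental regions stood alone. Another lay within 50 kb of 254 of them, or 17.1% (15.3 to 19.1), against 12.9% of 703 lasting regions and 9.40% of 649 developmental BCOR regions without Otx2, sets that are smaller and so less dense, and 58.1% of the 11227 Otx2 P0 regions without BCOR. Within 10 kb the shares were 4.65%, 4.27% and 4.16% for the developmental, lasting and Otx2-free regions. There were 1231 single regions, 95 pairs, 10 runs of 3, 7 of 4 and 1 of 6. The run of 6 was at chr10:79611508-79755625, where 6 of 20 merged regions met the rule, 3 of them with Otx2 at E14 and 2 with both adult Otx2 peaks. A run of 4 at chr4:88425428-88452269 was alike throughout, with no Otx2 at E14 or in the adult. In its 4 regions the BCOR folds at P0 ran from 7.53 to 17.3 and the Otx2 folds at P0 from 3.38 to 7.04. At chr3:95732753-95789738 the 4 regions differed, with Otx2 at E14 in 2 of them and in both adult libraries in 1.

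The rule left out regions with an adult BCOR peak, and the adult BCOR lists are short, so distance to such a peak is a description. The nearest adult BCOR peak lay 149867 bp away at the median (137927 to 170304), and 75 developmental regions (5.05%) had one within 10 kb. Over all 36512 merged regions without an adult BCOR peak the median was 244714 bp (238791 to 250410) and 5.85% had one within 10 kb. The median was 202594 bp for developmental BCOR regions without Otx2 and 323957 bp for Otx2 P0 regions without BCOR, so the developmental regions lay nearer at the median, though not more often within 10 kb than all such regions. The closest was 137 bp from a developmental region, and 18 regions (1.21%) had one within 1 kb, and whether BCOR moved or was lost in these few was not tested.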

How the data were processed

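Peaks were called from each CUT&RUN library with MACS2, with Trimmomatic, Bowtie2 and deepTools also named, per the submitters' processing notes; versions and commands are not given in the sources used here. In a deposited list stand a peak's score, its fold over background (a ratio), its −log10 p-value and −log10 q-value, and its summit offset in bp, as computed by the authors. The notes name mm9 and mm10; the lists are in mm9, since a chromosome 1 peak ends at 197068071, past the end of that chromosome in mm10. A genome or annotation of mm9 was not used here, so genes, motifs and sequences are not analysed here, and RNA counts were not joined.

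Autosomal peaks of 10 lists were merged (overlap of at least 1 bp) in Python 3.11.15 with pandas 2.3.3, numpy 2.4.6 and scipy 1.17.1. Shares have 95% Wilson intervals and their differences Newcombe intervals, and medians have exact order-statistic intervals. A difference was called where its interval excluded 0. The scripts were tested on simulated data. The members, comparison sets and the rule for named regions were chosen with earlier results of these data known. That rule took the highest 6 and lowest 3 regions by mean percentile, the highest 3 with no adult Otx2, with no E14 but both adult Otx2 peaks, with neither, by adult Otx2 rank and among regions with 1 adult BCOR peak, and the 3 longest runs. Chromosome 18 was left out of the named regions, and 23 further regions on chromosome X out of all counts. Alternatives were a stricter q-value, leaving out each P0 and adult library, overlap of P0 peaks, the stronger Otx2 regions, chromosome X, 10 kb spacing and ranks by q-value. Those with a window around the summit and a shortened adult list were chosen after seeing the data.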

Additional observations from a re-analysis of the deposited data

Results flagged for a closer look

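Among regions with a peak, the rank of Otx2 peaks in the developmental regions, set against Otx2 P0 regions without BCOR, went opposite ways at P0 and in the adult. The median fold percentile of the developmental regions was higher by 12.2 and 8.76 points in the P0 libraries, and it differed by -32.6 and -6.12 points in the adult libraries. These values were picked out because both libraries of each age fell on the same side. Both groups were chosen for holding both Otx2 P0 peaks, so the P0 values are a description. The difference between the ages was not tested, and the adult replicate 2 gap is absent by −log10 q-value (median 18.1 in both groups). Adult medians cover only regions with a peak, and unequal shares of the groups. These were 340 and 885 developmental regions (22.9% and 59.6%) against 2033 and 2960 BCOR-free regions (18.1% and 26.4%). The P0 medians cover all regions of both groups, so the medians of the 2 ages are not over the same regions. In the Otx2 E14 library, which the rule did not use, the median of regions with a peak was higher by 29.8 points in the developmental regions.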

How the results depend on the processing

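Of 84 alternative values of counts, shares, distances and ranks, 28 moved beyond the interval of the main value or, for the count, by over 1.5 times. The 5 differences between region groups had 59 alternatives, of which 16 lay outside the main interval, but the sign held with intervals excluding 0: the E14 share against developmental BCOR regions without Otx2 was 52.2 to 61.0 points and against BCOR-free regions 61.2 to 69.6, and the both-adult share was 3.34 to 33.2 against BCOR-free, -56.6 to -38.7 against lasting and 19.4 to 46.8 against Otx2-free regions. These alternatives did not include the lower bands of Otx2 P0 strength, where the both-adult share against BCOR-free regions was -3.45 and -1.32 points. Without BCOR P0 replicate 1 the rule gave 2647 regions. Leaving out each P0 and adult library in turn (E14 has 1 library per factor and was kept) gave 1485 to 2647 regions, E14 shares of 78.0% to 84.5%, both-adult shares of 20.2% to 59.6%, neither-adult shares of 30.7% to 77.1%, summit distances of 52.5 to 62.0 bp around 59.5 bp, adult percentiles of 28.7 to 54.6 around 45.5, and shares within 50 kb of 17.0% to 23.7%. The ends 59.6% and 77.1% are adult replicate 2 and replicate 1 taken alone. In the stronger regions by Otx2 at P0 the E14, both-adult and neither-adult shares were 87.0%, 32.6% and 36.7%. A window of 100 bp around the summit gave an E14 share of 80.1%. The neither-adult share was 37.3% at q-values of 0.01 or less and 61.5% with the shortened adult replicate 2 list, which holds fewer peaks. The adult percentile by q-value was 50.8, and within 10 kb the share was 4.65%. For the other moved values the cause was not tested. No paired analysis was possible because the presence of a peak in a region gives no model in which a replicate number could be a block. With 1 library at E14 and 2 elsewhere, differences between ages rest on single lists of unknown depth, and list length, q-value limit and peak naming changed with age.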
